A study of Homo sapiens with 6 samples.

Results

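Interferon-stimulated genes and the sensors of foreign or misplaced RNA and DNA were followed as a list of 49 genes in U266, a human multiple myeloma cell line. The list is set by gene name and uses no measured value as a criterion: cytosolic RNA sensors (RIGI, also DDX58, IFIH1, DHX58, MAVS), DNA sensing genes (CGAS, STING1, IFI16) and effectors such as the IFIT, OAS, MX and ISG15 families. It was chosen, however, with earlier results of these data known. All 49 were found by gene identifier among the 57820 genes listed for each library, and 45 passed the expression filter. The 2 groups were 3 control samples of U266 and 3 samples of the same line transduced with a lentivirus that carries MYC behind the EF1A promoter. Both were grown in RPMI-1640 with fetal bovine serum and antibiotics, and no interferon treatment is recorded for either. Whether the controls carry a vector, and whether samples of a group are separate cultures or 1 clone, is not given in the sources used here, so MYC and transduction cannot be told apart and the p-values measure the spread between these samples only.

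Cells detect viral or displaced nucleic acid through such sensors: RIGI and IFIH1 (MDA5) bind double-stranded RNA and signal through MAVS on mitochondria, and CGAS binds DNA and signals through STING1. The signal switches on type I interferon, which acts back through the receptor IFNAR1/IFNAR2, the kinases JAK1 and TYK2, and a complex that includes STAT2 and IRF9. That complex binds a promoter element called the interferon-stimulated response element (ISRE) and raises the genes described here, many of which bind viral RNA, block viral entry or tag proteins with ISG15.

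The ISRE was more frequent in the promoters of this list than in all promoters, and it stood in promoters of genes that rose and of genes that fell. RefSeq promoter windows (GRCh38.p14, 250 bases before to 50 after an annotated start, 300 in all) were held for 38 of the 49 genes, as 53 windows. CGAS, DHX58, GBP2, IFIT2, IFITM2, MX2, OAS2, OASL, STING1, TRIM22 and USP18 had none. The ISRE core, GAAA, any 2 bases and GAAA again, searched on both strands, was in 28 of the 53 windows (52.8%), against 3.57% of all 35116 windows. The list was made of interferon-stimulated genes, so this excess follows from its choice and is no result of these libraries. Windows of the same gene can overlap, and those of IFI27 and of IFI44 hold the same cores, counted in each. The GAS element TTCNNNGAA was in 18.9% against 7.66%, and the E-box CACGTG, a sequence bound by MYC with MAX, in 9.4% against 7.26%. By gene, the ISRE core was found for 12 of 18 genes called higher in MYC, 6 of 10 called lower, 3 of 7 not called and 3 of 3 not tested. The 6 windows below are shown because the first 3 genes rose and the last 3 fell by at least 2-fold, with an ISRE core in each. They were chosen after their values were seen. Each runs 5′ to 3′ along the gene, with the ISRE core, or its reverse complement, in capitals and overlapping cores joined.
IFIT1 (chr10:89392373-89392672, plus strand): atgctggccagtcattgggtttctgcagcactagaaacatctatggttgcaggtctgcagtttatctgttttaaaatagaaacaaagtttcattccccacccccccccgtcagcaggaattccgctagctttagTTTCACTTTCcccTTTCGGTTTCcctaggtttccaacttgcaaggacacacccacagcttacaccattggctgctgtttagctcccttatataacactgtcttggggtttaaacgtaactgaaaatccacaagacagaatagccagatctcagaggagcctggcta
DDX60 (chr4:168318703-168319002, minus strand): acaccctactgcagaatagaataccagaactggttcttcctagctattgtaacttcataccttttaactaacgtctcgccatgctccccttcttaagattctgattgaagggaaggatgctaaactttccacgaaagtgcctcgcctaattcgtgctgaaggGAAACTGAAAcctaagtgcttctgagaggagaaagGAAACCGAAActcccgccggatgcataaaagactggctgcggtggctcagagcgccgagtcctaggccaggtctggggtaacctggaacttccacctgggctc
IFI44L (chr1:78620198-78620497, plus strand): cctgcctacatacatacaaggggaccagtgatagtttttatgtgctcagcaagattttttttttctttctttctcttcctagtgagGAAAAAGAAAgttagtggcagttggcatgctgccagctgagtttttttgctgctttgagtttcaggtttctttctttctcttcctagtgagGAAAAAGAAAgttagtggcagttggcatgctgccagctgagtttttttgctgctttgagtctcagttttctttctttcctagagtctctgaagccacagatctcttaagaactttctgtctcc
ISG15 (chr1:1013247-1013546, plus strand): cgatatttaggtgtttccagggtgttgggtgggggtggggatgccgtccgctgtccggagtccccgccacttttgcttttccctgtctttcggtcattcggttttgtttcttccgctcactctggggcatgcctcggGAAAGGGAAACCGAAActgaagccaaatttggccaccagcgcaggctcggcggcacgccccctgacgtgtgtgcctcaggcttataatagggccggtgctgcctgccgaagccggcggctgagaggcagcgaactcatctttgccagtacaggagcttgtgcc
ISG20 (chr15:88638766-88639065, plus strand): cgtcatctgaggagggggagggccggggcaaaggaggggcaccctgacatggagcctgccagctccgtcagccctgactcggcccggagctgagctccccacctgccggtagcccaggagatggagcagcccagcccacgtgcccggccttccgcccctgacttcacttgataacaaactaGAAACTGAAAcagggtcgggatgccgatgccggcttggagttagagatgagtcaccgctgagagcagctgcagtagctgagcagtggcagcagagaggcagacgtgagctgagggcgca
BST2 (chr19:17405581-17405880, minus strand): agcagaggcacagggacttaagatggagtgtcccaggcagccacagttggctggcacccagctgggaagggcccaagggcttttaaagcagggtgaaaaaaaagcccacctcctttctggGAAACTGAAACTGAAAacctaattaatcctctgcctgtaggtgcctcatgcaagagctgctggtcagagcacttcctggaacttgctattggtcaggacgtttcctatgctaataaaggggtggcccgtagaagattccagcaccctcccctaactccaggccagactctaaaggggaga
Overlapping cores lie side by side in ISG15 and BST2, and ISG20 has a single core, which starts 69 bases before the annotated start. The ISG20 window also holds an E-box, as do windows of HERC5, ADAR and SP100. A match describes these letters and does not show that a factor binds.

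Depth differed 5.85-fold, between 27139978 summed expected counts in MYC library 1 and 158667309 in MYC library 2. Libraries of the same group differed by more than sampling noise in every pair, with a chi-square per degree of freedom of at least 7.78. MYC itself checked the labels: it stood at 3.91, 4.16 and 4.51 CPM (counts relative to library size, scaled with TMM factors) in control libraries 1 to 3 and at 105, 110 and 92.1 CPM in MYC libraries 1 to 3. Vector and endogenous reads were not told apart. All 9 plasma cell markers reached 1 TPM, with a summed level of 3881 to 4405 TPM in control and 3571 to 3656 TPM in MYC libraries. Of 3 markers of plasmacytoid dendritic cells, which make much interferon, 0 reached 1 TPM (summed 0.36 to 0.48 TPM in control and 0.21 to 0.30 in MYC), and CLEC4C and LILRA4 were under 0.1 TPM in every library. Myeloid markers (0 of 8 at 1 TPM) summed to 1.62 to 2.45 TPM in control and 1.77 to 2.71 in MYC, and B cell markers (0 of 5) to 0.36 to 0.51 and 0.60 to 0.96. T and NK markers (3 of 8) summed to 9.34 to 11.9 TPM and 15.2 to 16.3, epithelial markers (2 of 5) to 4.02 to 4.78 and 7.59 to 8.69, and stromal markers (1 of 5) to 2.88 to 3.37 and 1.98 to 2.36. Their part in the results was not tested.

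Several interferon-stimulated genes were abundant in the control cells and others were at the floor. Per transcript length (deposited TPM, mean ± SD, n = 3), BST2 was the highest of the list in control at 526 ± 12.8 TPM, followed by OAS1 at 402 ± 15.4, the RNA editing enzyme ADAR at 251 ± 7.80 and UBE2L6 at 216 ± 9.27. In all, 8 genes reached 100 TPM in control and 7 did in MYC. At the other end, 6 genes stayed under 1 TPM in both groups: RSAD2, TRIM22, EPSTI1, IFITM3, GBP1 and GBP2. EPSTI1, IFITM3, GBP1 and GBP2 did not pass the expression filter. GBP1 had 4, 0 and 6 counts in control and 3, 15 and 1 in MYC, and GBP2 had 4, 2 and 6 against 3, 11 and 4. These are too few for a fold change. So BST2 and IFITM3, both membrane proteins that hinder enveloped viruses, stood at 526 and 0.123 TPM in the same control cells.

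**Figure D1:**
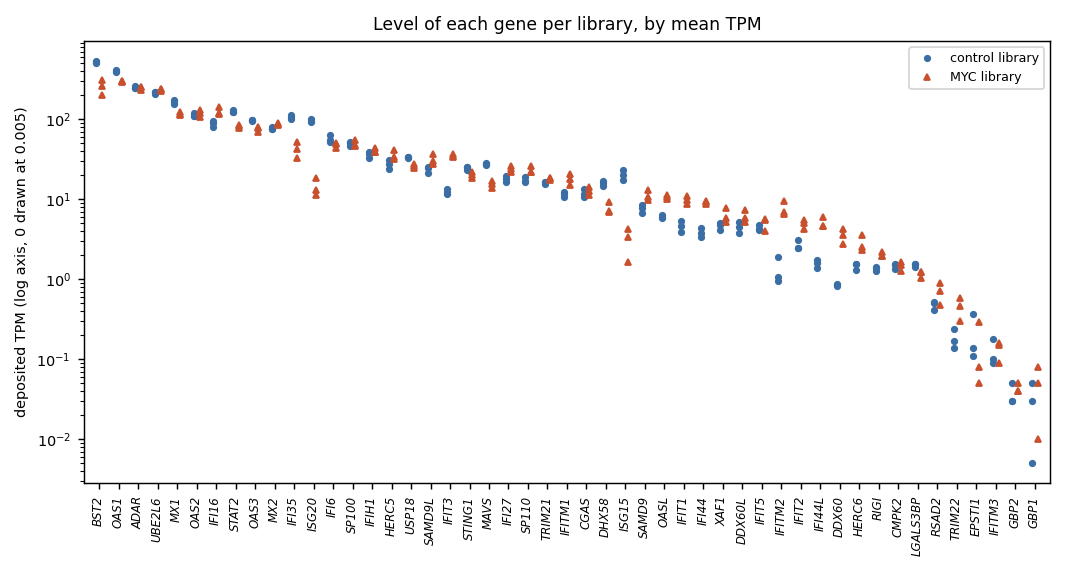
Deposited TPM (log axis) of each of the 49 genes in the 3 control (circles) and 3 MYC libraries (triangles), ordered by mean TPM. BST2, OAS1, ADAR and UBE2L6 lead, and IFITM3, GBP1 and GBP2 lie at the floor in both groups.

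The list did not move as a block in MYC cells: DDX60, IFIT1, IFIT3, IFI44, IFI44L, HERC6 and IFITM2 rose by at least 2-fold with no overlap between the groups, TRIM22 did so with overlap, while ISG15, ISG20, IFI35, DHX58 and BST2 fell by at least 2-fold. Of the 45 genes tested, 24 were called higher and 13 lower at an adjusted p under 0.05 (edgeR quasi-likelihood), and 8 were not called. Together 37, or 82.2%, were called, where the same rule called 60.8% of all 17679 genes tested. The share called higher was 53.3% against a background of 28.8%, and the share called lower, 28.9%, was near its background of 32.1%. At least 2-fold higher were 8 genes (17.8%, background 5.62%) and at least 2-fold lower were 5 (11.1%, near the background of 12.4%). Those 8 genes had low control means, from 0.183 (TRIM22) to 12.4 TPM (IFIT3). The 5 that fell had control means from 15.9 (DHX58) to 526 TPM (BST2). The groups did not overlap for 36 genes (80%, background 67.1%). The median log2 fold change was 0.23, against -0.02 for all genes tested. In RNA from a whole culture, fewer cells that express a gene and less of its RNA per cell cannot be told apart.

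**Figure D2:**
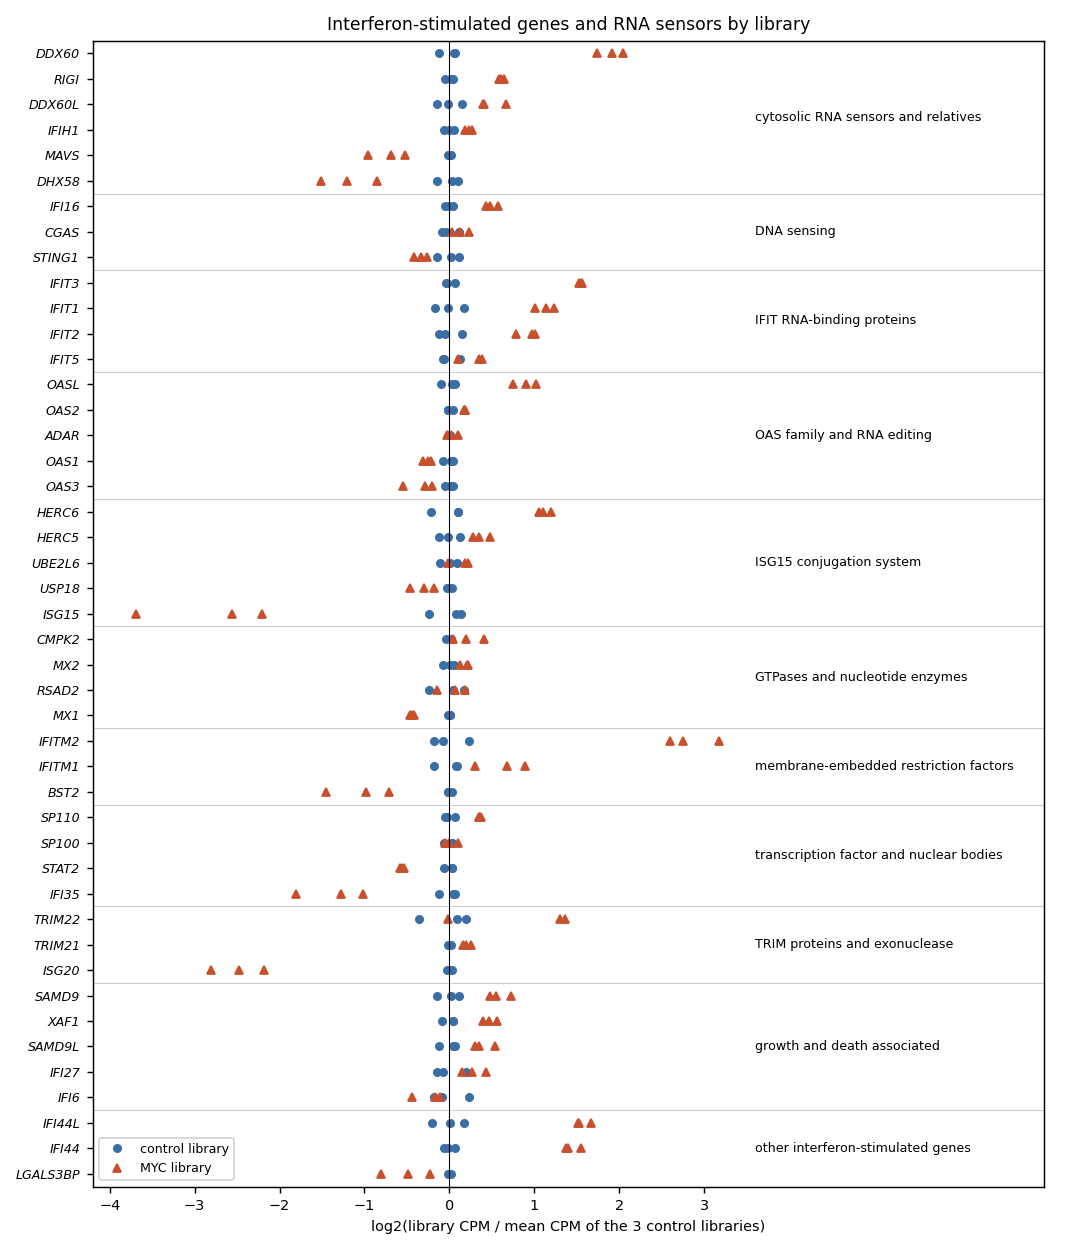
For each of the 45 genes tested, the CPM of every library over the mean of the 3 control libraries (log2), control as circles and MYC as triangles, grouped by role. IFITM2, DDX60, IFI44L, IFIT3 and IFI44 lie to the right, ISG15, ISG20 and IFI35 to the left, and the MYC libraries of ISG15, BST2 and IFI35 are spread wider than their controls.

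The direction of change followed the GC content of the transcripts, in this list as in all genes. Among the 17 tested genes under 45% GC, 15 were called higher and 0 lower, with 47.8% of all genes in that range called higher and 8.43% lower. Of the 17 genes at 45 to 55% GC, 7 were higher and 7 lower (all genes 30.0% and 23.1%). Of the 11 genes at 55% GC or more, 2 were higher and 6 lower (all genes 6.46% and 70.8%). The median log2 fold changes of the list in these ranges were 0.59, 0.03 and -0.33, against 0.23, 0.04 and -0.74 for all genes. Over the 45 genes, which share the same 6 libraries, Spearman's rho between log2 fold change and GC content was -0.63.

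The libraries themselves differed along GC content. Genes of 55% GC or more lay at a median of 0.22, 0.34 and 0.29 above their mean over all libraries (log2) in control libraries 1, 2 and 3, and at -0.17, -0.26 and -0.42 in MYC libraries 1, 2 and 3. MYC library 3, the lowest for these genes, was also the lowest MYC library for 11 of the 11 listed genes of that GC range. The share of all genes in that range with this order was not counted, so it is not read as a trait of the list. An offset that removes each library's trend of log2 CPM on GC content (the GC offset) was set beside most values. The trend ran with the groups, so the offset may also remove change that belongs to the groups. A technical trend and a change of GC-rich genes in MYC cells cannot be told apart here. With the offset, 22 of the 45 genes were higher and 12 lower (all genes 26.2% and 33.0%), and the list's median was 0.11 against -0.06. Spearman's rho between log2 fold change and GC content over the 45 genes was then -0.32. Without and with the offset alike, 18 genes were higher (all genes 18.8%) and 11 lower (20.9%). Of the rises of at least 2-fold, those of IFIT1 (1.82-fold), HERC6 (1.85-fold) and TRIM22 (1.78-fold) were under 2-fold with it. So were the falls of IFI35 (1.84-fold), DHX58 (1.65-fold) and BST2 (1.60-fold). The share of all genes at 2-fold with the offset was not counted. STING1 and LGALS3BP were called in opposite directions (2 of 45, all genes 3.10%), so no direction is given for them. A first form of the offset kept each library's mean level and put the median of all genes at -0.15. It was replaced after that was seen. With library means kept in this way, 16 genes of the list were called higher (35.6%, all genes 19.2%) and 15 lower (33.3%, all genes 40.7%).

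**Figure D3:**
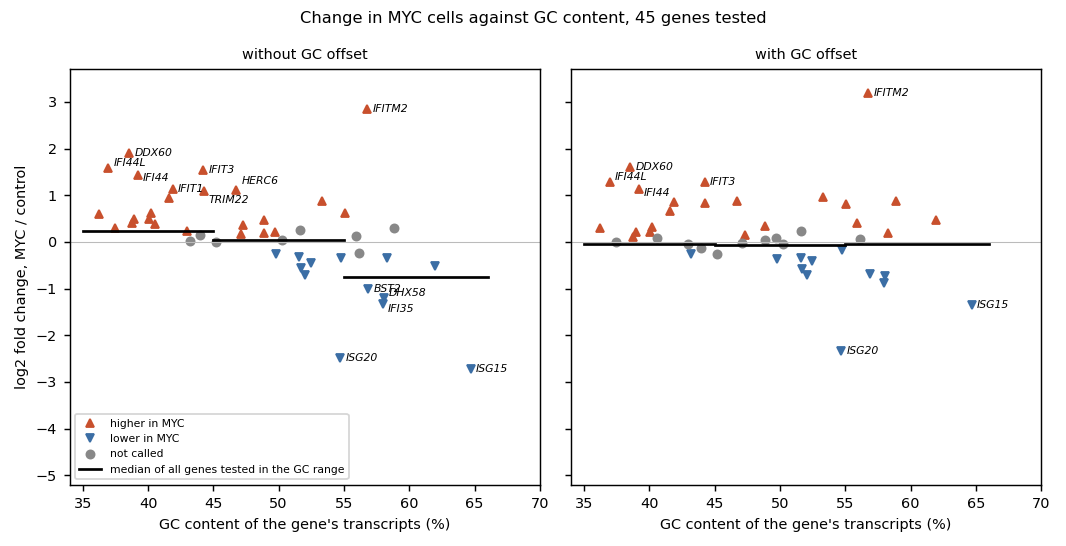
Log2 fold change of MYC against control for each of the 45 tested genes against the GC content of its transcripts, without (left) and with (right) the GC offset, with triangles for calls and circles for genes not called. Black lines give the median of all genes tested in each GC range, which falls to -0.74 on the left, while ISG15 and ISG20 lie under it and IFITM2 far above it in both panels.

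Among the cytosolic RNA sensors, DDX60, DDX60L and RIGI rose, and MAVS and DHX58 fell. DDX60, a helicase-related protein linked to RIGI signalling, stood at 3.39, 2.97 and 3.35 CPM in control and 10.8, 12.2 and 13.4 CPM in MYC. All MYC libraries lay above all controls, a 3.76-fold rise (log2 1.91 ± 0.11 SE, adjusted p = 3.95e-06), or 3.05-fold with the GC offset. Its neighbour DDX60L rose 1.41-fold (adjusted p = 0.0031), and 1.15-fold with the offset. That call ended with library means kept (log2 0.11) and on log2(TPM + 1) (adjusted p = 0.0627, limma). RIGI, which senses short triphosphate-ended RNA, rose 1.53-fold in CPM, and 1.24-fold with the offset. Its level was low, at 1.36 TPM in control and 2.03 TPM in MYC.
IFIH1, the sensor of long double-stranded RNA and the most abundant gene of this group in TPM, stood at 90.4, 83.7 and 87.1 CPM in control and 102, 99.1 and 104 in MYC. The groups did not overlap, yet its 1.17-fold difference (adjusted p = 0.00644) turned to a log2 value of -0.04 with the GC offset, which was not called, and it was called lower with library means kept (-0.13, adjusted p = 0.0338). DHX58 (LGP2), which tunes IFIH1 and RIGI signalling, stood at 14.8, 16.7 and 17.5 CPM in control and 9.04, 7.06 and 5.70 in MYC. It fell 2.29-fold (adjusted p = 0.000201), and 1.65-fold with the offset. MAVS, the adaptor that both sensors share, fell 1.64-fold in CPM both without and with the offset (adjusted p = 0.000347 and 2.17e-05). In TPM the fall of MAVS was larger, from 27.7 ± 0.809 to 15.4 ± 1.499 (SD, n = 3).

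In DNA sensing, IFI16, a nuclear DNA-binding protein, stood at 148, 139 and 143 CPM in control and 194, 199 and 214 in MYC. No library overlapped, and it rose 1.41-fold (adjusted p = 0.000136), or 1.15-fold with the offset, a call that ended with library means kept (log2 0.11). CGAS, the enzyme that makes the second messenger, was not called, at a log2 fold change of 0.14 ± 0.08 (adjusted p = 0.161), or -0.12 with the offset, and it was called lower with library means kept (-0.22). STING1, its receptor, was called lower without the offset (log2 -0.33) and higher with it (0.18).

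Of the 4 IFIT genes, whose products bind viral RNA, IFIT1, IFIT2 and IFIT3 rose. IFIT3 stood at 22.5, 21.2 and 21.0 CPM in control and at 63.0, 63.8 and 62.1 CPM in MYC. The spread within each group was small beside this 2.92-fold rise (log2 1.55 ± 0.06 SE, adjusted p = 5.85e-07), which was 2.44-fold with the offset. IFIT1 went from 6.66, 5.26 and 5.84 CPM to 12.0, 13.1 and 13.9 CPM, a 2.20-fold rise (adjusted p = 4.24e-05) and 1.82-fold with the offset. IFIT2 rose 1.91-fold, and 1.58-fold with the offset. IFIT5 stood apart at 1.23-fold with overlapping groups. Its call (adjusted p = 0.0284) ended with the offset (log2 0.01), with the replicate block (adjusted p = 0.0669), and without MYC library 2 (0.107), MYC library 3 (0.0524), control library 2 (0.11) or control library 3 (0.119), and turned to -0.09 with library means kept.

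The oligoadenylate synthetases, which make a second messenger on binding double-stranded RNA, split. OAS1, the most abundant gene of this group in TPM, stood at 356, 388 and 381 CPM in control and 323, 314 and 303 in MYC. It fell 1.20-fold without overlap (adjusted p = 0.00451), and 1.29-fold with the offset. OAS3 fell 1.26-fold (adjusted p = 0.00882), and 1.13-fold with the offset. OASL, a relative that lacks synthetase activity, went the other way, from 6.04 ± 0.257 to 10.6 ± 0.575 TPM, a 1.85-fold rise in CPM (adjusted p = 7.3e-05) and 1.95-fold with the offset. OAS2, whose gene lies beside OAS1 and OAS3, was called at 1.13-fold (adjusted p = 0.014), and the direction turned with the offset (log2 -0.03, not called). With library means kept OAS2 was called lower (-0.12, adjusted p = 0.0491). Its call also ended without MYC library 2 (adjusted p = 0.0571), control library 2 (0.051) or control library 3 (0.0779). ADAR, which edits double-stranded RNA and so keeps IFIH1 quiet, stood at 1006, 1008 and 1000.5 CPM in control and 1022, 1078 and 988 in MYC. The groups overlapped, and its log2 difference of 0.03 ± 0.06 (adjusted p = 0.631) was not called.

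**Figure D4:**
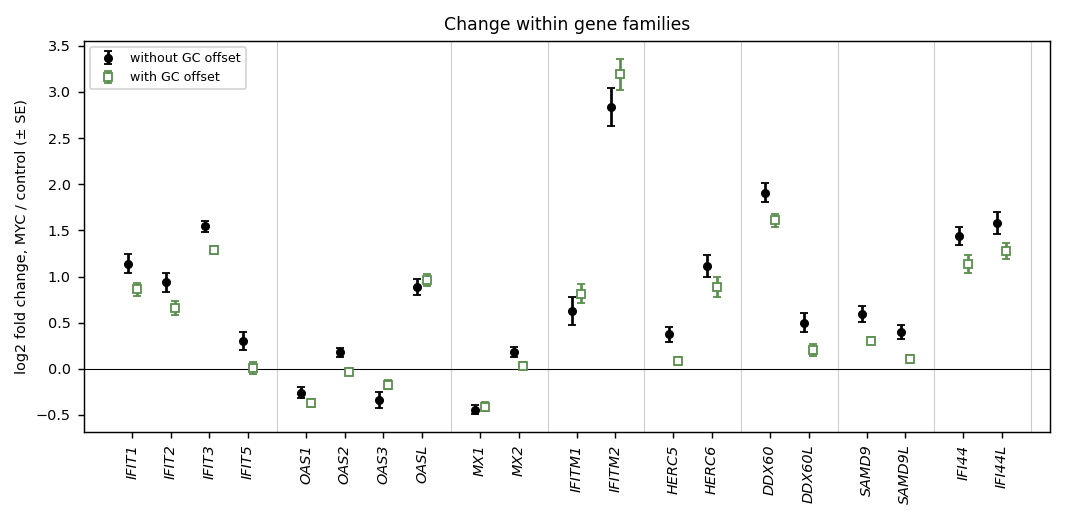
Log2 fold change (± SE from the model, 3 libraries per group) within 8 gene families, without (filled circles) and with (open squares) the GC offset. IFIT1, IFIT2 and IFIT3, HERC6, DDX60, IFI44 and IFI44L are above 0 both ways, OAS1, OAS3 and MX1 are below 0 both ways, and OAS2, MX2 and IFIT5 lie near 0 with the offset.

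In the ISG15 system, the modifier ISG15 and its protease USP18 fell while HERC6, of the HERC ligase family, rose. ISG15, the ubiquitin-like protein that is attached to newly made proteins, stood at 8.59, 8.29 and 6.62 CPM in control and 1.70, 1.33 and 0.607 in MYC. It fell 6.62-fold (log2 -2.73 ± 0.27 SE, adjusted p = 5.9e-05), but 2.55-fold with the GC offset, and at 64.7% its GC content was the highest of the listed genes tested. MYC library 3 was the lowest of the 6 and also lowest for high-GC genes in general. USP18, which removes ISG15 and dampens the receptor, fell 1.24-fold and 1.26-fold with the offset (adjusted p = 0.00753 and 0.00044). HERC6 stood at 2.81, 2.25 and 2.81 CPM in control and 6.01, 5.46 and 5.65 in MYC, and rose 2.16-fold (adjusted p = 7.32e-05), or 1.85-fold with the offset. HERC5, the main ISG15 ligase of human cells, was called 1.30-fold higher, but the call ended with the offset (log2 0.09) and the sign turned with library means kept (-0.01). UBE2L6, the conjugating enzyme and the most abundant gene of the group in TPM, had 175, 202 and 190 CPM in control and 221, 215 and 188 in MYC. The groups overlapped and it was not called (log2 0.14 ± 0.08, adjusted p = 0.166), though it was called higher with the offset (0.40) and without MYC library 3 (0.21, adjusted p = 0.0212).

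Of the GTPases and nucleotide enzymes, MX1, a dynamin-like antiviral GTPase, stood at 295, 295 and 292 CPM in control and 219, 214 and 216 in MYC. Both groups were tight and separate, and MX1 fell 1.36-fold (adjusted p = 9.65e-05), or 1.33-fold with the offset. Its neighbour MX2 was called 1.13-fold higher (adjusted p = 0.0238), but the call ended with the offset (log2 0.03), with the replicate block (adjusted p = 0.0581) and without MYC library 1 (0.0634), MYC library 2 (0.0991), control library 1 (0.0839) or control library 3 (0.0818). The sign turned with library means kept (-0.06). RSAD2 (viperin) and CMPK2, neighbours that act on nucleotides, were not called, with log2 differences of 0.01 ± 0.17 and 0.25 ± 0.12 (adjusted p = 0.975 and 0.112).

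Membrane proteins that hinder viral entry or release also split. IFITM2, which blocks fusion in endosomes, stood at 0.324, 0.401 and 0.302 CPM in control and 3.10, 2.31 and 2.08 in MYC. It rose 7.17-fold (log2 2.84 ± 0.21 SE, adjusted p = 1.4e-05), and 9.13-fold with the offset, and reached 7.70 ± 1.69 TPM. IFITM1 rose 1.54-fold (adjusted p = 0.00604), and 1.76-fold with the offset. In the GENCODE 29 annotation IFITM1 and IFITM2 overlap by 351 exonic bases on the same strand (32.5% of the exonic bases of IFITM1) and resemble each other, so their counts may share reads and are uncertain. IFITM3 had 1 to 8 counts per library. BST2 (tetherin), which holds budding virus at the surface and is a surface antigen of myeloma cells, stood at 325, 335 and 323 CPM in control and 200, 166 and 120 in MYC. All MYC libraries were lower and spread more widely than the controls. BST2 fell 2.02-fold (log2 -1.02 ± 0.16 SE, adjusted p = 0.000577), and 1.60-fold with the offset.

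Among nuclear and regulatory genes, STAT2, the part of the interferon-activated complex that carries the transactivation domain, stood at 210, 225 and 226 CPM in control and 150, 152 and 147 in MYC. It fell 1.47-fold without overlap (adjusted p = 4.9e-05), and 1.48-fold with the offset. IFI35 stood at 74.3, 85.0 and 83.2 CPM in control and 40.0, 33.3 and 23.2 in MYC, and fell 2.53-fold (adjusted p = 0.000201), or 1.84-fold with the offset. SP110, a nuclear body protein, rose 1.28-fold, or 1.11-fold with the offset, a call that ended with library means kept (log2 0.06). An antisense gene covers 18.4% of its exonic bases, and the library kit does not mark strand. SP100, the founding member of these bodies, was not called (log2 0.02 ± 0.06, adjusted p = 0.826), and was called lower with the offset (-0.25).

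ISG20, an exonuclease that degrades single-stranded RNA, had the lowest adjusted p of the genes that fell. It stood at 47.6, 46.4 and 45.6 CPM in control and at 10.3, 8.33 and 6.68 CPM in MYC, so the highest MYC library was far under the lowest control. The fall was 5.61-fold (log2 -2.49 ± 0.13 SE, adjusted p = 3.22e-06) and changed little with the GC offset, at 5.04-fold. In TPM it went from 96.4 ± 4.90 to 14.3 ± 3.67. TRIM22, a restriction factor, was near the floor at 0.180, 0.246 and 0.265 CPM in control and 0.227, 0.591 and 0.570 in MYC, with overlapping groups. Its call (2.15-fold, adjusted p = 0.0153) ended without MYC library 2 (adjusted p = 0.108) or control library 1 (0.0567) and with library means kept (log2 0.74). TRIM21, a cytosolic antibody receptor, was called 1.15-fold higher (adjusted p = 0.0181). The call ended with the offset (log2 0.09), with the replicate block (adjusted p = 0.0612) and without any 1 library other than MYC library 3 (adjusted p from 0.0523 without MYC library 1 to 0.0716 without control library 3, with 0.0563 without MYC library 2, 0.0586 without control library 1 and 0.0629 without control library 2). The sign turned with library means kept (log2 -0.0022).

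In the genes tied to growth arrest and cell death, SAMD9, an antiviral translation repressor, rose 1.51-fold and 1.23-fold with the offset (adjusted p = 0.000522 and 0.0001). SAMD9L rose 1.32-fold and 1.08-fold, a call that ended with library means kept (log2 0.01). XAF1, a proapoptotic binder of XIAP, rose 1.39-fold and 1.26-fold, but its call ended on log2(TPM + 1) (adjusted p = 0.0822, limma), and a gene on the opposite strand covers 38.3% of its exonic bases. IFI6, an endoplasmic reticulum and mitochondrial protein and the most abundant here in TPM, had 26.1, 32.6 and 24.5 CPM in control and 25.7, 24.7 and 20.4 in MYC. The groups overlapped and it was not called (log2 -0.23 ± 0.13, adjusted p = 0.14). IFI27 was not called either (log2 0.29 ± 0.12, adjusted p = 0.0679). It was called higher with the offset (0.89), on log2(TPM + 1) (0.39, adjusted p = 0.00977, limma), without MYC library 3 (0.37, adjusted p = 0.0287) and without control library 2 (0.39, adjusted p = 0.0262).

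The neighbouring genes IFI44 and IFI44L rose together. IFI44 stood at 2.99, 2.82 and 2.72 CPM in control and 8.32, 7.38 and 7.50 in MYC, a 2.71-fold rise (adjusted p = 8.8e-06) and 2.20-fold with the offset. IFI44L stood at 2.41, 1.85 and 2.14 CPM in control and 6.09, 6.13 and 6.79 in MYC, a 2.98-fold rise (adjusted p = 1.72e-05) and 2.43-fold with the offset. LGALS3BP, a secreted glycoprotein, was called lower without the offset (log2 -0.51) and higher with it (0.48). In RefSeq gene order, 24 of the 49 genes lie next to another listed gene in 11 runs. Such neighbours were called the same way both ways for IFI44 and IFI44L, IFIT2 and IFIT3, DDX60 and DDX60L, SAMD9 and SAMD9L, and IFITM1 and IFITM2, but not for OAS1, OAS3 and OAS2, MX2 and MX1, HERC6 and HERC5, or IFIT1 and IFIT5.

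Upstream of these genes, 68 of 69 listed pathway genes were matched by identifier (not IKBKE) and 44 passed the filter: 15 were called higher and 16 lower (34.1% and 36.4%, with backgrounds of 28.8% and 32.1%). With the GC offset these were 17 and 22 (38.6% and 50%, with backgrounds of 26.2% and 33.0%). Of the 21 interferon genes, 14 had 0 counts in all 6 libraries, none passed the filter, and the highest count in a library was 11. The receptor chains IFNAR1 and IFNAR2 were not called (log2 0.14 and 0.06), and with the offset both were called lower (-0.12 and -0.17). IFNAR1 was called higher without control library 1 (0.18, adjusted p = 0.0333). JAK1 rose 1.36-fold, and 1.21-fold with the offset. TYK2 fell 1.98-fold, but 1.10-fold with the offset. Its mean effective length went from 1305 bases in control to 1054 in MYC. In TPM the fall of TYK2 was smaller, from 199 to 120.
IRF9, the DNA-binding part of the complex, fell 1.48-fold (adjusted p = 0.0006) and 1.20-fold with the offset, a call that ended with the effective length offset (log2 -0.14, adjusted p = 0.202).

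Of the 44 pathway genes tested, 5 fell by at least 2-fold (11.4%, near the background of 12.4%) and 1 rose by as much (2.27%, background 5.62%). For each, the second value below is with the GC offset. IRF7, which amplifies the interferon response, fell 8.99-fold and 2.76-fold, and IRF3, which the sensors activate, 2.47-fold and 1.37-fold. The mean effective length of IRF3 also went from 756 bases in control to 548 in MYC. Its mean TPM went from 149 to 80.3, a smaller fall than the 2.47-fold in CPM. TREX1, which clears cytosolic DNA, fell 3.62-fold and 1.85-fold. ZBP1, a sensor of Z-form nucleic acid, fell 2.27-fold and 1.84-fold. TICAM1, the adaptor of TLR3, fell 2.85-fold and 1.29-fold. TLR7, an endosomal sensor of single-stranded RNA, rose from 0.720, 0.828 and 0.703 CPM to 15.5, 15.7 and 15.2 CPM, 20.6-fold and 16.9-fold with the offset.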

How the data were processed

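Per the labels' protocols, poly-A enriched libraries came from a NEBNext Ultra RNA kit, which keeps no strand information. The submitters' processing notes name cutadapt, TopHat2 and the build GRCh37, with no versions or annotation. The deposited tables have, per the file headers, RSEM's columns: an expected count (reads that fit several genes are divided among them), a TPM and an effective length in bases. Other deposited columns were not used.

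The members and lists were chosen with earlier results of these data known. Symbols came from a table of gene names (51996 of 57820 rows). Expected counts were rounded and tested with edgeR 4.0.16 (R 4.3.3): default expression filter, TMM factors, group only, quasi-likelihood F test, Benjamini-Hochberg adjustment over 17679 genes, call at adjusted p under 0.05. The SE derives from the F statistic. On simulated counts of 17679 genes, 53.9% of 76 genes changed 1.5-fold were found. So were 75.4% of 61 changed 2-fold and 100% of 63 changed 4-fold, and 9 of 159 calls were unchanged genes. The simulation had no GC trend and far fewer changed genes than the 10756 called in these data. Its rates are therefore not those of the calls reported here. Transcripts of GENCODE 29 with the same identifiers gave each gene's GC content. The GC offset removes a loess trend (span 0.4) per library over 17202 genes. Values were given per library for members called with at least a 2-fold change and for the most abundant member of each role. All members could be named. The pathway genes named are those of the receptor chain, apart from what is not reported here, and those called with at least a 2-fold change. Alternatives were RLE factors, total counts, DESeq2 1.42.0, limma 3.58.1 on log2(TPM + 1) and log2(TPM + 0.1), 2 expression filters, an effective length offset, a replicate block, the GC offset in 2 forms and each library left out.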

Additional observations from a re-analysis of the deposited data

How the results depend on the processing

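Of the genes listed, 12 called higher and 11 called lower kept direction and call under every alternative run for them (up to 18). That count was not made over all genes, so it is not read as a trait of the list. When any 1 library was left out, 19 to 25 listed genes were called higher and 12 to 13 lower. Over all genes the numbers were then 4184 to 5076 higher and 4925 to 5809 lower. The genes tested in those fits were not counted, so no shares are given. MYC was called higher throughout (log2 4.15 to 4.998). No sign of pairing by replicate number was seen: deviations of same-numbered libraries correlated at -0.05, 0.08 and 0.11, and not every library correlated best with its own number. With 3 libraries per group this cannot exclude pairing. With the replicate block 21 listed genes were higher and 13 lower (46.7% and 28.9%, all genes 26.3% and 30.4%), and the calls of IFIT5, MX2 and TRIM21 ended. The median log2 fold change of the list, 0.23, was 0.25 with DESeq2 and with RLE factors, 0.21 with the effective length offset, 0.17 on log2(TPM + 0.1), 0.16 on log2(TPM + 1), 0.19 at a mean CPM of at least 5, 0.20 with no expression filter, 0.11 with the GC offset and with that offset and the replicate block, 0.0117 with library means kept, and from 0.199 to 0.226 with a library left out. At a mean CPM of at least 5, where fewer genes were tested, all genes called lower in MYC numbered 3694. With library means kept, all genes called higher in MYC numbered 3301 (19.2%) and all genes called lower in MYC 6994 (40.7%). Without an offset these were 5085 (28.8%) and 5671 (32.1%). Of the 44 pathway genes tested, 25 were lower with library means kept, beside the 40.7% of all genes. The cause was not tested. On log2(TPM + 1) the calls of IFIH1, DDX60L, IFIT5, OAS2, TRIM21, XAF1, LGALS3BP and IRF9 ended and IFI27 was called higher, as on log2(TPM + 0.1) and with every form of the GC offset. With no expression filter those of IFIH1, OAS2, MX2 and TRIM21 ended and IFI6 was called lower. With the effective length offset those of IFIT5, OAS2, LGALS3BP and IRF9 ended and IFI27 was called higher.

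These signs turned under forms of the GC offset, given as log2 values with the offset, with offset and replicate block, and with library means kept: IFIH1 -0.0406, -0.0404 and -0.13, STING1 0.18, 0.18 and 0.0896, OAS2 -0.0295, -0.0289 and -0.12, SP100 -0.25, -0.25 and -0.34, LGALS3BP 0.48, 0.49 and 0.39, IFNAR1 -0.12, -0.12 and -0.22, IFNAR2 -0.17, -0.18 and -0.27. With library means kept CGAS was -0.22, IFIT5 -0.0877, HERC5 -0.007, MX2 -0.0594 and TRIM21 -0.0022. Among listed genes called neither without nor with the GC offset, the sign also turned with it for CGAS (0.14 to -0.12), ADAR (0.03 to -0.05), RSAD2 (0.01 to -0.26) and IFI6 (-0.23 to 0.06). The call of LGALS3BP without the offset also ended without MYC library 2 (-0.53, adjusted p = 0.056) or 3 (-0.39, adjusted p = 0.0512). EPSTI1, IFITM3, GBP1, GBP2, TRIM22 and RSAD2 stayed under 1 TPM in every library, also in the deepest, so their values are uncertain.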
